A study of Mus musculus with 6 samples.

Results

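Iron and heme handling was examined through 10 genes chosen by name, of 54232 genes in the files: *Tfrc*, *Slc11a2*, *Slc11a1*, *Slc48a1*, *Hmox1*, *Blvrb*, *Fth1*, *Ftl1*, *Slc40a1*, and *Cp*. All 10 were matched to a gene identifier, and all 10 passed the expression filter that left 11254 genes for testing. The libraries were RNA-seq of Ly6Chi monocytes sorted from the CNS (GFP-CD45+CD11b+Ly6ChiLy6G- cells) at the peak of EAE, a mouse model of multiple sclerosis induced by immunization with a myelin antigen. The mice were mixed BM chimeras: irradiated GFP+ recipients that had been given equal parts of CD45.1 WT and CD45.2 *Ifnar1*-/- marrow 6 to 7 weeks before immunization. *Ifnar1* encodes a chain of the receptor for type I IFNs. There were 3 libraries of WT and 3 of *Ifnar1*-/- monocytes. Every library came from mice treated with 30000 IU of rIFN-β per day, and no library of PBS-treated mice was analysed here. The comparison is thus of monocytes that could and could not receive the IFN signal in the same treated hosts. Receptor genotype and donor strain (CD45.1 or CD45.2) cannot be told apart in this design. There were 3 recipient mice and 3 libraries per group, but no source used here says which mouse gave which library, so p-values measure only the spread between these libraries.

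Monocytes and the macrophages that derive from them take up iron bound to transferrin and, by engulfing dying cells, heme. Heme is opened by heme oxygenase, which releases the iron, and free iron is either stored inside the ferritin shell or passed out of the cell through ferroportin. Inflammation is known to shift this balance toward retention of iron. Much of the control is exerted on mRNA: when iron is scarce, iron regulatory proteins bind a stem-loop called the iron-responsive element, which blocks translation when it lies ahead of the coding sequence and stabilizes the mRNA when it lies behind it.

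The stem-loops of these genes are shown because they are the sites at which iron acts on the mRNA of several members. Transcripts of GENCODE M21 were searched for an unpaired C, 5 paired bases, the 6-base loop CAGTGN with A, C, or T as its last base, and at least 3 of 5 pairs below the bulge. Of 21877 protein-coding genes, 68 (0.311%) held such a form. Among the 10 members, 4 held it (*Fth1*, *Ftl1*, *Slc40a1*, and *Tfrc*) and 6 did not, which says only that these letters were not found in their annotated transcripts. Elements of another form, such as the one known in an isoform of *Slc11a2*, are not found by this search. The loop is in capitals in each of the 27-base sequences, which are written 5′ to 3′ on the strand of the gene.
Fth1: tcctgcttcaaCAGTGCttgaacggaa
Ftl1: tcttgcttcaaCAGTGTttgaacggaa
Slc40a1: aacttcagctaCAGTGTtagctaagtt
Tfrc stem-loop 1: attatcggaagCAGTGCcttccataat
Tfrc stem-loop 2: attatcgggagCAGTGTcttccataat
Tfrc stem-loop 3: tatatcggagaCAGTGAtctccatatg
Tfrc stem-loop 4: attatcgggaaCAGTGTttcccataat

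On GRCm38 the *Fth1* stem-loop lay at chr19:9982733-9982759 (plus strand), the *Ftl1* stem-loop at chr7:45459780-45459806 (minus strand), and the *Slc40a1* stem-loop at chr1:45925466-45925492 (minus strand). All 3 were in an exon and ahead of the coding sequence. The ferritin stem-loops shared 25 of 27 bases, with the changes C3T and C17T from *Fth1* to *Ftl1* (positions counted from the 5′ end of the printed sequence). *Tfrc* held 4 stem-loops, all in an exon behind the coding sequence, at chr16:32631220-32631246, chr16:32631599-32631625, chr16:32631664-32631690, and chr16:32631711-32631737 (plus strand). Stem-loops 1 and 2 of *Tfrc* shared 25 of 27 bases, and stem-loop 3 shared 17 to 18 bases with the others. In promoter windows of RefSeq (GRCm38.p6, 250 bases before to 50 after a gene's start), 10 windows covered 6 members: *Tfrc*, *Slc11a1*, *Blvrb*, *Fth1*, *Ftl1*, and *Cp*. None of the 10 windows held GAAANNGAA, the core of the interferon-stimulated response element, on either strand, against 8.56% of 32851 windows. TGANNNNGC, the core of the antioxidant response element, was in 3 of the 10 windows (of *Slc11a1* and *Blvrb*) against 41.3% of all windows. Its narrower form TGACTCAGC, which TGANNNNGC includes, was in none of the 10 windows and in 0.454% of all. CAGTGN after the start, on the plus strand, was also in none of the 10 and in 7.08% of all windows. These windows end 50 bases after the start, so they could not hold the *Tfrc* stem-loops, which lie behind the coding sequence. The *Ftl1* stem-loop also lay more than 50 bases from the annotated 5′ end of its gene (chr7:45459884). Absence from the windows thus says nothing of stem-loops farther in.

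The libraries held 7321380, 4531782, and 4946747 expected counts in WT and 6916101, 5811323, and 5442568 in *Ifnar1*-/- monocytes, in the order of replicates 1, 2, and 3. Levels are given below in this order, as normalized CPM, which are counts divided by the library size that the TMM scaling of edgeR gives, on the CPM scale. The detection floor was set at 3 counts, worth 0.427 to 0.638 normalized CPM, which covers counting error only. Library 1 of WT stood somewhat apart from the other WT libraries. The SD over genes of its log2 difference was 0.547 to library 2 and 0.544 to library 3, against 0.466 between libraries 2 and 3 and 0.525 between WT library 2 and *Ifnar1*-/- library 2. The differences of *Hmox1*, *Ftl1*, *Slc40a1*, and *Hmox2*, and of the genes of iron regulation, are therefore given with and without it.

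The labels were checked first. *Ifnar1*, the targeted gene, had 153, 126, and 111 normalized CPM in WT and 110, 102, and 109 in *Ifnar1*-/- monocytes, so every WT library was above every *Ifnar1*-/- library, by little. Its log2 fold change (WT over *Ifnar1*-/- here and below) was 0.28 (SE 0.15, adjusted p = 0.36 by edgeR), and gene-level counts do not show which exons were read. *Irf7*, a transcription factor induced by type I IFN, had 721, 413, and 393 normalized CPM in WT and 25.8, 32.7, and 31.8 in *Ifnar1*-/- monocytes (log2 fold change 4.08, SE 0.26, adjusted p = 1.6e-05). The IFN-stimulated genes *Isg15* (3.56), *Mx1* (4.47), and *Ifit1* (4.80) also passed the test with higher levels in WT. A gene was called when its adjusted p in the edgeR test was no greater than 0.05 and its change was 1.5-fold or more.

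None of the 10 iron and heme genes was called, in an experiment in which edgeR called 240 genes (2.13%), 188 of them higher (1.67%) and 52 lower (0.462%) in WT. DESeq2, which called 3.83% of the genes it tested, and limma-voom, which called 1.96%, also called none of the 10. At an unadjusted p under 0.05, edgeR passed 1 of the 10 (*Hmox1*), against 17.8% of all tested genes. The 10 log2 fold changes ran from -0.57 to 0.45 with a median of -0.02, beside -0.01 for all tested genes, and 4 were positive and 6 negative. In 2 members (*Hmox1* and *Fth1*) every WT library was above every *Ifnar1*-/- library, which was so for 11.1% of all tested genes, and in no member was every WT library below, against 12.2%. The smallest adjusted p of the 10 was 0.251. A call missed at this number of libraries does not show that a gene was alike in both groups, so the 95% interval of each difference was examined. It lay wholly within 1.5-fold in either direction for 4 of the 10 members (*Tfrc*, *Slc11a2*, *Slc11a1*, and *Slc48a1*), compared with 30.7% of all tested genes.

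**Figure D1:**
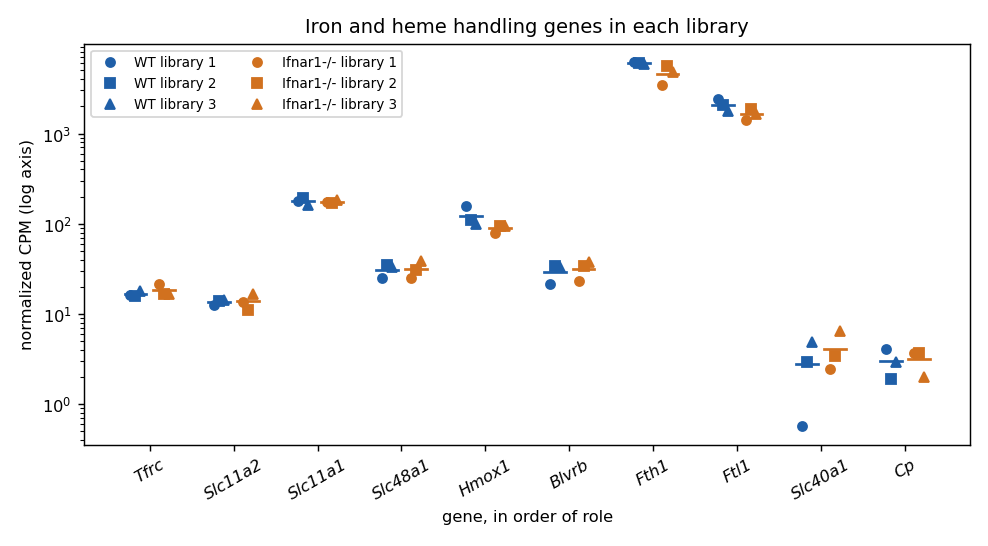
Level of each gene in each library, in normalized CPM on a log axis. Points are single libraries, shaped by replicate number, and horizontal lines are group means of 3 libraries. The genes span from under 1 (*Slc40a1*, WT library 1) to 6165 (*Fth1*, WT library 1), and the groups overlap in 8 of the 10 genes.

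The levels themselves differed widely between members. Compared per length, as TPM over all 6 libraries, the order was *Fth1* (mean 7253 TPM), *Ftl1* (2180), *Slc11a1* (111), *Hmox1* (70.4), *Blvrb* (35.0), *Slc48a1* (12.8), *Slc11a2* (8.36), *Tfrc* (5.21), *Slc40a1* (2.05), and *Cp* (1.43). The ranges over the libraries did not meet between *Fth1* (4290 to 9366 TPM) and *Ftl1* (1554 to 2754), between *Ftl1* and *Slc11a1* (79.7 to 129), between *Hmox1* (49.8 to 83.4) and *Blvrb* (19.3 to 46.8), or between *Blvrb* and *Slc48a1* (7.65 to 16.0). *Slc11a1* and *Hmox1* met in their ranges, as did each neighbouring pair from *Slc48a1* down to *Cp*, so the order within these was not settled by the spread. These monocytes held far more mRNA for iron storage than for the transferrin receptor or for export.

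Uptake of transferrin-bound iron was represented by *Tfrc*, the transferrin receptor (ENSMUSG00000022797.16, chr16:32608920-32632794). It had 16.4, 15.7, and 18.0 normalized CPM in WT and 21.5, 16.8, and 16.7 in *Ifnar1*-/- monocytes. The groups overlapped, and the highest value was that of *Ifnar1*-/- library 1. This gave a log2 fold change of -0.14 (95% interval -0.54 to 0.26, adjusted p = 0.731).

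*Slc11a2*, also known as DMT1, carries ferrous iron out of the endosome into the cytosol (ENSMUSG00000023030.16, chr15:100387898-100425072). It had 12.5, 14.0, and 14.2 normalized CPM in WT and 13.6, 11.2, and 16.7 in *Ifnar1*-/- monocytes, with both the lowest and the highest value among *Ifnar1*-/- libraries. The log2 fold change was -0.03 (95% interval -0.48 to 0.42, adjusted p = 0.965).

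*Slc11a1*, or NRAMP1, is the related transporter that phagocytes place on the phagosome, where it withdraws metals from engulfed material (ENSMUSG00000026177.11, chr1:74375195-74386062). It ranked 3rd of the members by mean TPM, and had 178, 193, and 163 normalized CPM in WT and 173, 169, and 184 in *Ifnar1*-/- monocytes. The groups overlapped throughout. Its log2 fold change of 0.02 had the narrowest interval of the 10 (-0.28 to 0.32, or 0.82-fold to 1.25-fold, adjusted p = 0.961).

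Heme that reaches the lysosome is moved to the cytosol by *Slc48a1*, also called HRG1 (ENSMUSG00000081534.3, chr15:97778520-97792692). Its levels were 25.0, 34.9, and 32.8 normalized CPM in WT and 24.9, 30.7, and 38.3 in *Ifnar1*-/- monocytes. In both groups library 1 was the lowest, and the groups overlapped. The log2 fold change was -0.02 (95% interval -0.46 to 0.42, adjusted p = 0.973).

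*Hmox1*, the inducible heme oxygenase (ENSMUSG00000005413.8, chr8:75093621-75100589), showed the largest positive difference among the members. It had 158, 109, and 98.7 normalized CPM in WT and 79.1, 95.4, and 94.0 in *Ifnar1*-/- monocytes, or 122 ± 31.9 and 89.5 ± 9.03 (SD, n = 3). WT library 1 was by far the highest, *Ifnar1*-/- library 1 the lowest, and the other 4 libraries lay between 94.0 and 109, with the groups just apart. The 95% interval of its log2 fold change of 0.45 was 0.03 to 0.87, and the difference did not pass the edgeR test over all genes (adjusted p = 0.251). Without WT library 1 it was 0.22 (adjusted p = 0.614).

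The enzyme that follows heme oxygenase in one branch of heme breakdown is *Blvrb*, biliverdin reductase B (ENSMUSG00000040466.16, chr7:27447978-27466144). Its values were 21.5, 34.0, and 32.8 normalized CPM in WT and 23.4, 34.2, and 37.7 in *Ifnar1*-/- monocytes. As for *Slc48a1*, library 1 was the lowest of each group. Its log2 fold change came to -0.12 (95% interval -0.62 to 0.39, adjusted p = 0.836).

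The ferritin genes were the most abundant members. *Fth1* encodes the heavy chain, which oxidizes iron as it enters the shell (ENSMUSG00000024661.6, chr19:9980598-9985098), and had 6165, 6103, and 5836 normalized CPM in WT and 3413, 5630, and 4741 in *Ifnar1*-/- monocytes. The WT libraries lay close together (6035 ± 175, SD, n = 3), and the *Ifnar1*-/- libraries were all lower and much more spread (4595 ± 1116). The log2 fold change was 0.39 (95% interval -0.09 to 0.88, adjusted p = 0.375), and 0.23 without *Ifnar1*-/- library 1 (adjusted p = 0.692). *Ftl1* encodes the light chain, which aids formation of the iron core (ENSMUSG00000050708.16, chr7:45457944-45459884). It had 2385, 2062, and 1754 normalized CPM in WT and 1407, 1847, and 1642 in *Ifnar1*-/- monocytes, and the groups overlapped through WT library 3 and *Ifnar1*-/- library 2. Its log2 fold change was 0.34 (95% interval -0.07 to 0.76, adjusted p = 0.371), and 0.23 without WT library 1 (adjusted p = 0.687).

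Together the ferritin chains took 0.870%, 1.21%, and 1.14% of all TPM in WT and 0.584%, 1.07%, and 0.782% in *Ifnar1*-/- monocytes. *Fth1* ranked 2nd among protein-coding genes by TPM in each WT library and 3rd in each *Ifnar1*-/- library. *Ftl1* ranked 7th, 12th, and 12th in WT and 27th, 20th, and 22nd in *Ifnar1*-/- libraries. These ranks did not overlap between groups, but its CPM did. Its TPM overlapped as well (2193, 2754, and 2374 in WT and 1554, 2382, and 1823 in *Ifnar1*-/- libraries). A rank also depends on the levels of other genes, and the share of genes whose ranks part in this way was not computed. Mitochondrial ribosomal RNA took 12.3%, 14.2%, and 17.6% of the expected counts in WT and 22.7%, 15.1%, and 19.6% in *Ifnar1*-/- libraries, and its share was highest in *Ifnar1*-/- library 1, the lowest in both ferritin genes. With mitochondrial and ribosomal RNA genes removed before scaling, the log2 fold changes were 0.41 for *Fth1* and 0.36 for *Ftl1*. The part of RNA quality in these values was not tested. The ratio of *Fth1* to *Ftl1*, taken within a library and so free of the scaling between libraries, was 2.97, 3.40, and 3.80 in WT and 2.76, 3.50, and 3.29 in *Ifnar1*-/- monocytes. On the log2 scale this was 1.75 ± 0.18 and 1.66 ± 0.18 (SD, n = 3), a difference of 0.09 (two-sided exact permutation test, p = 0.6, where 0.1 is the smallest p that 3 libraries against 3 allow). Ferritin genes have many processed copies in the genome, between which reads could be divided, so their values are uncertain to that extent. Of the annotated copies, *Ftl1-ps1* had 246 to 421 counts in a library and *Fth-ps2* had 2 to 14, beside at least 8885 for *Ftl1* and 22352 for *Fth1*. With the copies of each chain added, the log2 fold changes were again 0.39 and 0.34.

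**Figure D2:**
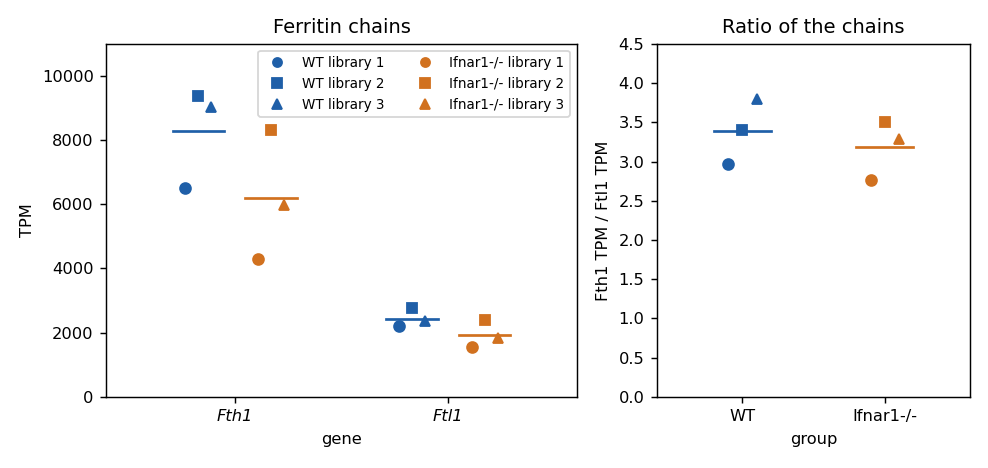
Ferritin chains by library. The left panel plots the TPM of *Fth1* and *Ftl1*, and the right panel the ratio of the chains within each library. Points are libraries and lines are means of 3. The ratio lies between 2.76 and 3.80 in all 6 libraries, and library 1 has the lowest ratio of each group.

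Export through ferroportin, the only known exporter of cellular iron, was represented by *Slc40a1* (ENSMUSG00000025993.10, chr1:45908068-45926523). It was near the limit of detection, with 4, 14, and 25 counts in WT and 16, 20, and 35 counts in *Ifnar1*-/- libraries, or 0.569, 2.98, and 4.94 and 2.44, 3.39, and 6.44 normalized CPM. Library 3 was the highest and library 1 the lowest in each group, and the groups overlapped. The log2 fold change was -0.57 (95% interval -1.95 to 0.80, adjusted p = 0.675), the widest interval of the 10, and -0.02 without WT library 1 (adjusted p = 0.991). As a ratio of WT to *Ifnar1*-/- the interval reached from 0.26-fold to 1.74-fold, which takes in both signs. In TPM, WT library 3 (6.50) was above *Ifnar1*-/- library 3 (1.77) in spite of its fewer reads.

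*Cp*, ceruloplasmin, oxidizes iron that leaves through ferroportin so that transferrin can bind it (ENSMUSG00000003617.16, chr3:19957054-20009145). It had 4.13, 1.91, and 2.96 normalized CPM in WT and 3.66, 3.73, and 2.02 in *Ifnar1*-/- monocytes, on 9 to 29 counts. The groups overlapped (log2 fold change -0.04, 95% interval -0.93 to 0.84, adjusted p = 0.973). *Cp* overlaps *Hps3* on the opposite strand (336 to 472 counts) and *Slc48a1* overlaps *Hdac7* (25 to 76 counts). The strand setting of the counting is not given in the sources used here, so reads of these neighbours may be in their values.

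**Figure D3:**
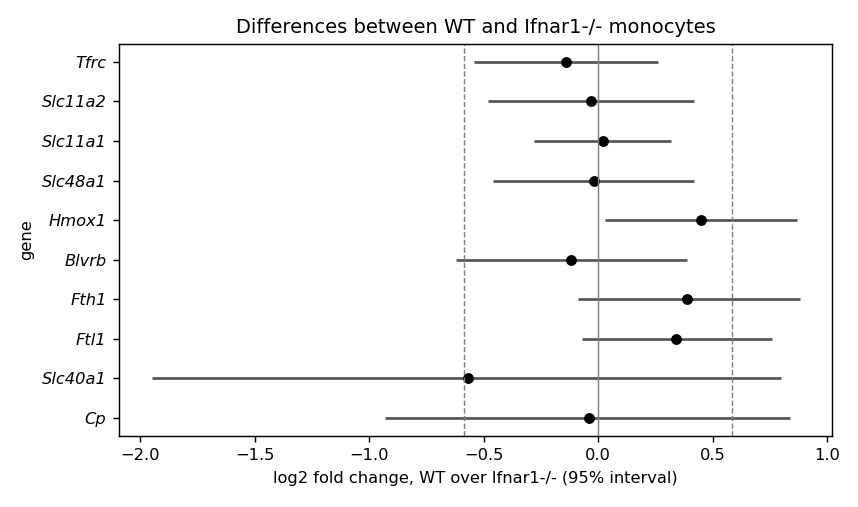
Log2 fold change of each gene (WT over *Ifnar1*-/-, point) with its 95% interval from the edgeR fit (line). Dashed lines mark 1.5-fold in either direction. The interval of *Hmox1* begins at 0.03, all other intervals include 0, and that of *Slc40a1* is the widest.

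None of the 10 genes lay near *Ptprc*, which encodes CD45, or *Ifnar1*, the loci at which the donors differ by design. Only 3 were on either chromosome, and the nearest was *Tfrc* at 58.9 Mb from *Ifnar1*.

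By Pearson correlation of log2 normalized CPM over the 6 libraries, which differ in depth and in marker content, the tested genes most like *Hmox1* were *Fam168a* (0.998), *Gpatch1* (0.993), *Cd68* (0.989), *Pcyt2* (0.987), and *Zswim8* (0.983). All 5 were highest in WT library 1 and lowest in *Ifnar1*-/- library 1, and none was called. *Cd68*, a lysosomal glycoprotein of macrophages, had 419, 259, and 232 normalized CPM in WT and 173, 241, and 206 in *Ifnar1*-/- monocytes. The genes most like *Slc40a1* were *Ncaph* (0.993), *Gbe1* (0.990), *Casp2* (0.989), *Rcbtb2* (0.988), and *2810405F17Rik* (0.988), all lowest in WT library 1. Such values are the highest of 11254 genes over 6 libraries and describe likeness only.

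A wider list of 64 genes of iron and heme metabolism, sorted by role, gave the same outcome. Of these, 44 were tested and none was called by edgeR, DESeq2, or limma-voom. At an unadjusted p under 0.05, 8 passed (18.2%, against 17.8% of all tested genes), 4 with higher and 4 with lower levels in WT. The median log2 fold change of the 44 was -0.05, and the smallest adjusted p was 0.134. Every WT library was above every *Ifnar1*-/- library in 5 of the 44 and below in 3, beside 11.1% and 12.2% of all tested genes. Of the 20 genes not tested, 11 had no count in any library.

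Among 11 tested genes of iron uptake, the most abundant was *Hp*, haptoglobin, which binds free hemoglobin (238 TPM, log2 fold change 0.31, adjusted p = 0.438). *Mcoln1*, a channel that releases iron from the lysosome, had the smallest p of this role, with 37.4, 35.3, and 36.1 normalized CPM in WT and 26.6, 25.4, and 32.2 in *Ifnar1*-/- monocytes. Its groups did not overlap, and its log2 fold change was 0.37 (95% interval 0.04 to 0.70, adjusted p = 0.226). *Slc39a14*, or ZIP14, imports iron that is not bound to transferrin, and had the most negative difference of the list (-0.58, 95% interval -1.13 to -0.02, adjusted p = 0.263). It was called only when a replicate block was combined with offsets for GC content and gene length (-0.78, adjusted p = 0.0162). *Cd163*, the scavenger receptor for hemoglobin bound to haptoglobin, had 0 to 2 counts in a library.

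Of the genes for heme breakdown and transport, *Hmox2*, the constitutive heme oxygenase, was both the most abundant and the one with the smallest p. It had 91.4, 62.5, and 68.1 normalized CPM in WT and 56.2, 55.2, and 40.5 in *Ifnar1*-/- monocytes, without overlap (log2 fold change 0.55, 95% interval 0.13 to 0.96, adjusted p = 0.166). Without WT library 1 the log2 fold change was 0.37 (adjusted p = 0.41). Both heme oxygenase genes thus had WT values above *Ifnar1*-/- values in all 3 libraries, as had 11.1% of all tested genes. Neither difference passed the adjustment. The biliverdin reductase genes *Blvra* and *Blvrb*, which act after them, each had a log2 fold change of -0.12, with overlapping groups. Of the iron chaperones, which hand iron to ferritin, *Pcbp2* (371 TPM) had a log2 fold change of -0.01 and *Pcbp1* one of 0.15 (adjusted p = 0.981 and 0.615).

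The 3 genes of the iron regulatory system all had negative log2 fold changes, and none was called. They were *Aco1*, which encodes iron regulatory protein 1 (-0.29, adjusted p = 0.338), *Ireb2*, which encodes iron regulatory protein 2 (-0.23, adjusted p = 0.465), and *Fbxl5*, the iron-sensing ubiquitin ligase subunit that removes the latter (-0.26, adjusted p = 0.513). Without WT library 1 they were -0.28, -0.14, and -0.09. *Aco1* had 26.5, 26.6, and 27.2 normalized CPM in WT and 28.3, 34.6, and 35.7 in *Ifnar1*-/- monocytes, without overlap. mRNA levels do not show the binding activity of these proteins. Across all genes with a stem-loop of the form printed above, 47 were tested and 1 was called, beside 2.13% of all tested genes. It was *Agrn* (agrin, log2 fold change 1.49, adjusted p = 0.00472), named here after its value was seen.

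Transcription of *Hmox1* and the ferritin genes is repressed by BACH1 and induced by NRF2, which KEAP1 holds back. *Bach1* was the most abundant of the 5 tested factors (53.4 TPM), with a log2 fold change of -0.14 (adjusted p = 0.704). It lies 3.75 Mb from *Ifnar1*. *Keap1* had the smallest p of the whole list, with 51.7, 40.8, and 47.4 normalized CPM in WT and 25.2, 38.6, and 29.4 in *Ifnar1*-/- monocytes, without overlap (0.59, 95% interval 0.19 to 0.99, adjusted p = 0.134). *Nfe2l2*, which encodes NRF2, had a log2 fold change of 0.03 (95% interval -0.27 to 0.33, adjusted p = 0.942), and of -0.05 without WT library 1. *Spic*, a factor of iron-recycling macrophages, had 0 to 1 counts.

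In heme synthesis *Alas1*, the enzyme of the first step outside the erythroid lineage, was the most abundant and had the smallest p, with 397, 375, and 333 normalized CPM in WT and 269, 321, and 278 in *Ifnar1*-/- monocytes (log2 fold change 0.35, 95% interval 0.02 to 0.68, adjusted p = 0.255). Its groups did not overlap. Among the 10 genes of mitochondrial iron, *Tmem14c*, a heme precursor transporter, was the most abundant and had a log2 fold change of -0.42 (adjusted p = 0.216). *Hamp*, which encodes hepcidin, the hormone that removes ferroportin from the cell surface, had 0 counts in all 6 libraries. So did *Hamp2*, *Hjv*, *Tmprss6*, and *Bmp6*, which belong to the control of hepcidin or its family, and *Heph* and *Hephl1*, which encode membrane ferroxidases. A count of 0 allows a level of up to 0.427 to 0.638 normalized CPM, the floor given above.

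**Figure D4:**
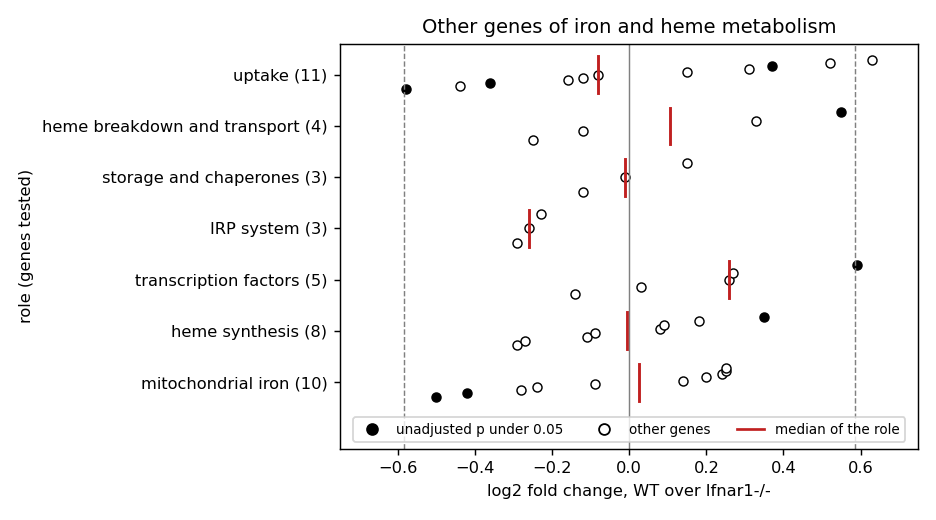
Log2 fold change (WT over *Ifnar1*-/-) of the 44 tested genes of the wider list, by role. Filled points have an unadjusted p under 0.05 in edgeR, red lines are the medians of each role, and dashed lines mark 1.5-fold. The 8 filled points fall on both sides of 0, and all medians lie between -0.26 and 0.26.

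Markers of monocytes and of other cells of the inflamed CNS were read beside these values. The gate should remove neutrophils by Ly6G, T and B cells by CD11b, and endothelial cells, astrocytes, and oligodendrocytes by CD45. The 8 monocyte markers summed to 8262 to 9931 normalized CPM in a library, led by *Lyz2*, as the label of the cells says. One of them was called: *Ly6c2*, a gene of the sorting antigen with similar copies in the genome, had 726, 788, and 640 normalized CPM in WT and 177, 300, and 337 in *Ifnar1*-/- monocytes (log2 fold change 1.40, adjusted p = 0.00957). Among the other 7, *Ccr2*, the chemokine receptor by which monocytes leave the marrow, had 648, 694, and 587 normalized CPM in WT and 1269, 794, and 905 in *Ifnar1*-/- monocytes (-0.62, adjusted p = 0.143). *Fcgr1*, an Fc receptor, had 413, 278, and 271 in WT and 203, 194, and 192 in *Ifnar1*-/- monocytes (0.71, adjusted p = 0.0839). Neither overlapped between groups, and they differed in opposite directions. Red cells, which carry much heme, left almost no trace. None of the 9 matched erythroid markers was tested, *Alas2*, *Slc4a1*, and *Epor* had no counts, and the list, led by *Hba-a2*, summed to 0 to 4.97 normalized CPM.

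Neutrophil markers varied most between libraries. Of the 10 genes, *Ngp* had the highest mean in WT (306 normalized CPM) and *S100a9* in *Ifnar1*-/- libraries (389). None of the 9 tested genes was called, and *Ly6g* was below 1 throughout. The 10 genes summed to 232, 659, and 2221 normalized CPM in WT and 923, 699, and 2595 in *Ifnar1*-/- libraries. Library 3 was the highest in each group and WT library 1 the lowest of all, which was also so for *Slc40a1*, and in *Hmox1* WT library 1 was the highest. The part of neutrophil RNA in these results was not tested. T cell markers, led by *Il7r*, summed to 135, 98.8, and 107 in WT and 56.5, 57.6, and 48.9 in *Ifnar1*-/- libraries. They did not overlap between groups, 7 of 8 tested genes were higher in WT at an unadjusted p under 0.05, and none was called. Endothelial markers summed to 176, 106, and 86.9 in WT and 56.5, 90.0, and 55.5 in *Ifnar1*-/- libraries, nearly all of it from *Flt1*, with *Cldn5* below 1. The part of these cells in the values of *Hmox1* and the ferritin genes was not tested.

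Microglial markers, led by *P2ry13*, summed to 64.4 to 88.7 normalized CPM, with *Sall1* at 1.10 or below. Oligodendrocyte markers, led by *Mbp*, summed to 44.2 to 60.0 with *Mog* at 0. Astrocyte markers, led by *Gfap* in WT and by *Gja1* in *Ifnar1*-/- libraries, summed to 7.02 to 11.4. None of the tested genes of these lists was called. B cell markers, led by *Cd79b*, summed to 1.71, 1.49, and 1.58 in WT and 0.305, 0.678, and 1.10 in *Ifnar1*-/- libraries, without overlap, on so few counts that none of them was tested. In bulk RNA, fewer cells of a type and less RNA per cell cannot be told apart.

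**Figure D5:**
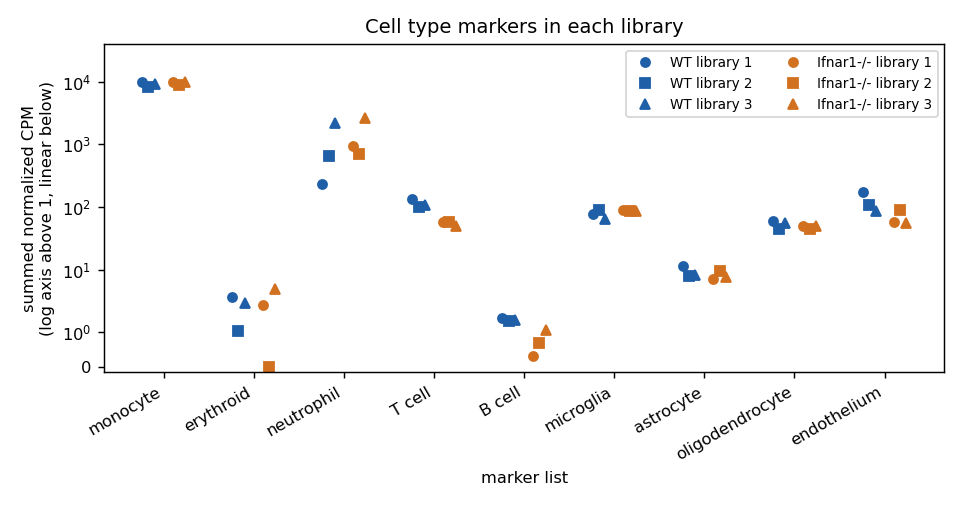
Summed normalized CPM of each marker list in each library, on an axis that is logarithmic above 1 and linear below it. Points are libraries, shaped by replicate number. Monocyte markers sum to 8262 or more in every library, the neutrophil sum ranges from 232 to 2595, the T cell and B cell sums of the groups do not overlap, and erythroid markers stay under 5.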

How the data were processed

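Per the labels and the study's methods, reads of 75 bp were mapped by the authors to GRCm38, and STAR 2.6.0c and RSEM 1.2.31 are named in the submitters' processing notes. The labels and the methods name different library kits, both stranded. The deposited unit was the expected count, an estimate by RSEM that divides reads among matching genes and is not normalized. The deposited TPM, scaled by the authors for gene length and depth, was used for levels between genes, the ferritin ratio, and 1 alternative test.

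Symbols and positions came from GENCODE M21, which matched 54165 of 54232 identifiers. Expected counts were rounded and fitted without a block in edgeR 4.0.16 under R 4.3.3 (TMM, filterByExpr with a minimum count of 10, quasi-likelihood test, Benjamini-Hochberg adjustment over 11254 genes). The test was checked on simulated counts. Alternatives used DESeq2 1.42.0 and limma 3.58.1, other scalings and filters, a replicate block, offsets for GC content and gene length, and each library left out in turn. The members and lists were chosen with earlier results of these data known. All members were named, then from each role the gene of highest mean TPM and that of smallest p; others were picked after their values were seen. A few single genes are left out of the text.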

Additional observations from a re-analysis of the deposited data

How the results depend on the processing

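No member that an alternative tested was called under the 19 alternatives (*Cp* got no adjusted p in the DESeq2 block, and *Slc40a1* and *Cp* could not be fitted with at least 10 counts required in every library), and the wider list had 1 call (*Slc39a14*), under the replicate block with offsets for GC content and length. The number of called genes was 240, and 419 with DESeq2, 872 without a filter on low counts, 120 with limma on log2(TPM + 1), and 379 with the block and offsets together. It ranged from 119 (without *Ifnar1*-/- replicate 1) to 245 when 1 library was left out, with 120 without *Ifnar1*-/- replicate 3 and 148 without WT replicate 3.

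*Hmox1*, *Fth1*, and *Ftl1* kept a positive sign throughout. When 1 library was left out they ranged from 0.22 to 0.60, 0.23 to 0.58, and 0.23 to 0.47, and their adjusted p over all alternatives ranged from 0.147 to 0.775, 0.238 to 0.808, and 0.304 to 0.838. The other members had differences near 0 or few counts, and their sign turned. With limma on log2(TPM + 1), the log2 fold change was 0.36 for *Slc11a2*, -0.13 for *Slc11a1*, 0.03 for *Slc48a1*, 0.02 for *Blvrb*, 0.19 for *Slc40a1*, and 0.16 for *Cp*. With offsets for GC content and length it was -0.18 for *Slc11a1* and 0.05 for *Cp*. With 1 library left out the range was -0.19 to 0.01 for *Tfrc*, -0.14 to 0.15 for *Slc11a2*, -0.03 to 0.10 for *Slc11a1*, -0.14 to 0.17 for *Slc48a1*, -0.28 to 0.08 for *Blvrb*, -1.27 to -0.02 for *Slc40a1*, and -0.36 to 0.19 for *Cp*. The ferritin log2 ratio difference ranged from -0.01 to 0.18. The cause was not tested.

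The replicate numbers were not shown to pair the libraries: deviations of same-numbered libraries correlated by 0.0872, 0.0265, and 0.2887, and WT library 1 correlated best with *Ifnar1*-/- library 2 (0.1013). The replicate block gave 220 called genes in edgeR and 264 in DESeq2, and 0 called among the members tested. In the DESeq2 block the log2 fold change was 0.00 for *Slc11a2* and 0.01 for *Slc48a1*, and with the block and offsets -0.18 for *Slc11a1* and 0.04 for *Cp*. The ferritin difference taken over same-numbered pairs was 0.09 (exact p = 0.5).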
